A study of Mus musculus with 14 samples.

Results

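Cd47, Sirpa and Thbs1 encode the membrane protein CD47, the receptor SIRPA and the secreted glycoprotein thrombospondin-1. They were taken by symbol, 3 of the 9474 genes measured in each of the study's 2 experiments, and all 3 have a value in every library. RNA was sequenced from C57BL/6J mouse cells. In the culture experiment, purified marrow monocytes were grown into macrophages over 7 days. The IL4 group (n = 4 libraries) received 20 ng/mL of murine IL4, a cytokine of type 2 immunity, together with the macrophage growth factor CSF1, and the control group (n = 4) received CSF1 without IL4. The labels differ on the dose of CSF1, with 25 ng/mL in one place and 20 ng/mL in another. In the marrow experiment, mice were transplanted with acute myeloid leukemia (AML) cells, and F4/80+ cells were sorted from the marrow on day 12. The leukemia carried an IL4 cDNA in the IL4 group (n = 3) and an empty vector in the control group (n = 3), so that control mice had leukemia as well. The sources used here name neither the leukemia line nor the promoter of the IL4 cDNA nor the purity of the sort. No library is labelled as leukemia cells, so the Cd47 values below are those of the cultured or sorted cells.

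CD47 is carried by most cells, and when it binds SIRPA on a macrophage it holds phagocytosis back. Binding leads to phosphorylation of the tail of SIRPA, which recruits the phosphatases SHP-1 and SHP-2, and myosin activity at the contact site is reduced. Thrombospondin-1, made by platelets, monocytes, macrophages and other cells, is another ligand of CD47 and also binds CD36, LRP1 and several integrins. The series title names CD47 upregulation as a counterweight to phagocytosis of leukemia cells under IL4, and the question taken up here is how the genes of ligand, receptor and thrombospondin behaved in the cultured and sorted cells.

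On the mouse build GRCm38 (mm10), GENCODE M21 places Cd47 at chr16:49800533-49915010, Sirpa at chr2:129592835-129632228 and Thbs1 at chr2:118111876-118127133, all on the plus strand. Their longest annotated transcripts span 5250, 3982 and 5848 bases. A long intergenic RNA gene, Gm29233, lies on the opposite strand inside Thbs1 and is not among the measured genes. Whether reads were counted by strand is not given in the sources used here. The RefSeq promoter table (GRCm38.p6) has an entry for Cd47, with 2 listed starts. The 250 bases before its first listed start, chr16:49855404-49855653 on the plus strand, are shown because Cd47 was higher with IL4 in both experiments. This window lies inside the GENCODE span of Cd47, downstream of the start of that span. The bases before the GENCODE start were not searched. Capitals mark the GC box GGGCGG, the core of sites bound by SP1-type factors.
Cd47 promoter: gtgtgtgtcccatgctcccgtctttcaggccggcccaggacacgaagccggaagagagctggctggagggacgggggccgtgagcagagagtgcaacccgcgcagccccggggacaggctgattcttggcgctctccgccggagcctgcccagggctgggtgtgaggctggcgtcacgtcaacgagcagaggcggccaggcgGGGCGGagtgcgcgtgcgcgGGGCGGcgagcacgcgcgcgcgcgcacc
This window is 73.2% G or C, against a median of 52.4% over 32851 promoter windows of the same length, and 94.3% of those windows have a lower value. GGGCGG was searched on both strands and occurs 2 times in the Cd47 window, without overlap. At least 1 match is present in 32.7% of all windows. The letters TTCNNNNGAA, the spacing STAT6 prefers, were not in this window on either strand and are in 5.85% of all windows. TTCNNNGAA, the spacing of other STAT proteins, had 0 matches against 7.02% of windows, and CACGTG, the E-box bound by MYC, had 0 matches against 6.02%. The window of the other listed start, chr16:49855411-49855660, had the same numbers of matches. These are matches of letters, not measured sites.

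The deposited log2 values were traced back to whole read numbers, and levels are given as RPM, the reads of a gene scaled to a total of 1e+06 recovered reads, beside the tests on the deposited log2 values. Libraries held 551519 to 895646 recovered reads. Retnla and Arg1, genes induced by IL4 in mouse macrophages, checked the IL4 labels. Retnla had 4641 to 11618 reads in the culture IL4 libraries, against 0 in each culture control, and 895 to 3037 in the marrow IL4 libraries, against 0 in each marrow control. Arg1 had 1714 to 8497 reads in the culture IL4 libraries, against 0 to 1 in the culture controls, and 94 to 486 in the marrow IL4 libraries, against 0 to 2 in the marrow controls. The labelled cell type was checked with 10 macrophage markers. Emr1, the gene of the F4/80 protein used for the sort, had 37 to 126 reads in marrow IL4 libraries and 28 to 65 in marrow controls. The summed level of the 10 was 5340 to 6800 RPM in culture IL4 libraries and 10300 to 11600 RPM in culture controls, and 433 to 968 RPM in marrow IL4 libraries and 593 to 755 RPM in marrow controls. The similar marrow sums cover single markers that were higher and others that were lower with IL4, as given below. The neutrophil genes S100a8, S100a9, Ngp and Mmp8 summed to 152 to 364 RPM with IL4 and 136 to 204 RPM without it in culture, but to 42100 to 52000 RPM with IL4 and 57300 to 65800 RPM without it in marrow. The sorted marrow libraries were thus high in neutrophil transcripts and low in macrophage markers relative to culture, and the marrow values below are those of this mixture. In such bulk libraries, fewer cells of a type and less RNA per cell cannot be told apart. Over all genes, the median log2 fold change of IL4 against control was -0.36 in culture and -0.06 in marrow, so each result is also given after every library was centred on its own median.

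**Figure D1:**
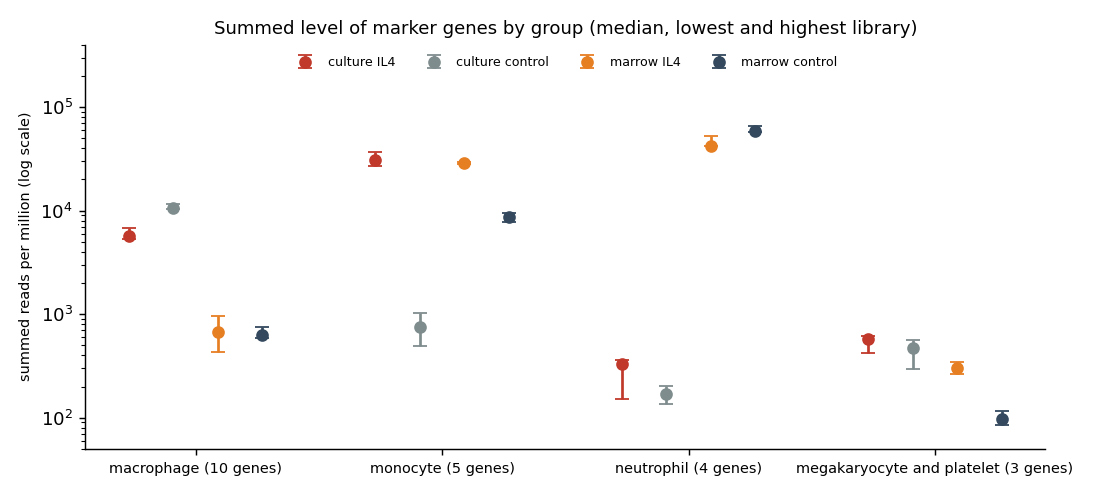
Summed RPM (log axis) of 4 marker lists in each of the 4 groups; points are medians and bars run from the lowest to the highest library. Macrophage markers are lower and neutrophil genes are higher in both marrow groups than in both culture groups. The monocyte sum includes Chil3, a gene induced by IL4, and the megakaryocyte and platelet sum in marrow is mostly Itgb3.

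Cd47, the ligand, was higher with IL4 in both experiments. In culture it had 171.7, 152.6, 146 and 162.5 RPM in the IL4 libraries, against 132.9, 132.7, 109.2 and 126 RPM in the controls. In marrow it had 464.4, 469.6 and 487.7 RPM in the IL4 libraries, against 282.8, 314.7 and 288.9 RPM in the controls. Every IL4 library lay above every control library of its experiment, and the spread within a group was small, from 2.58% of the mean in marrow IL4 libraries to 8.90% in culture controls. The culture values rest on 103 to 142 reads per library with IL4 and 69 to 119 without it, and the marrow values on 259 to 408 and 184 to 206. Of 8 markers of progenitors and leukemic blasts, Cd34 and Sox4 were measured, and they summed to 47.1 to 76.5 RPM in marrow IL4 libraries and 68.7 to 100 RPM in marrow controls. The part of such cells, or of the neutrophils, in the Cd47 level was not tested.

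In culture, the log2 fold change of Cd47 was 0.35 ± 0.115 (SE, 95% interval 0.098 to 0.608, n = 4 per group), a 1.28-fold higher level, with a limma adjusted p of 0.0321. In that comparison 7.96% of all genes rose, 32.6% fell and 40.5% passed in either direction (14.4% and 12.7% rose and fell after centring). In marrow, the log2 fold change was 0.68 ± 0.124 (SE, 95% interval 0.403 to 0.961, n = 3 per group), 1.60-fold, with a limma adjusted p of 0.00532. There 6.7% of genes rose, 11.5% fell and 18.2% passed in either direction (9.45% and 8.92% rose and fell after centring). The groups of a gene did not overlap for 37.7% of all genes in culture and 37.6% in marrow, so the separation of the Cd47 libraries is shared with many genes. After centring, Cd47 was 0.72 higher in culture (limma adjusted p = 0.00159) and 0.79 higher in marrow (limma adjusted p = 0.0029). The culture call is narrow as deposited, since it was lost without the variance trend (limma adjusted p = 0.0622) and in 5 of 8 fits that left out a library.

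Cd47 was 1 of 166 genes that rose in both experiments, which are 22% of the genes that rose in culture and 26.1% of those that rose in marrow. The marrow effect minus the culture effect was 0.33 ± 0.155 (SE, 95% interval -0.0025 to 0.659) and did not pass, with a limma adjusted p of 0.14. After centring that difference was 0.07 (limma adjusted p = 0.808). In order of level, the groups ran from culture control through culture IL4 and marrow control to marrow IL4, and no neighbours in that order overlapped. The culture and marrow tables were deposited separately, so levels set across them are a description.

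**Figure D2:**
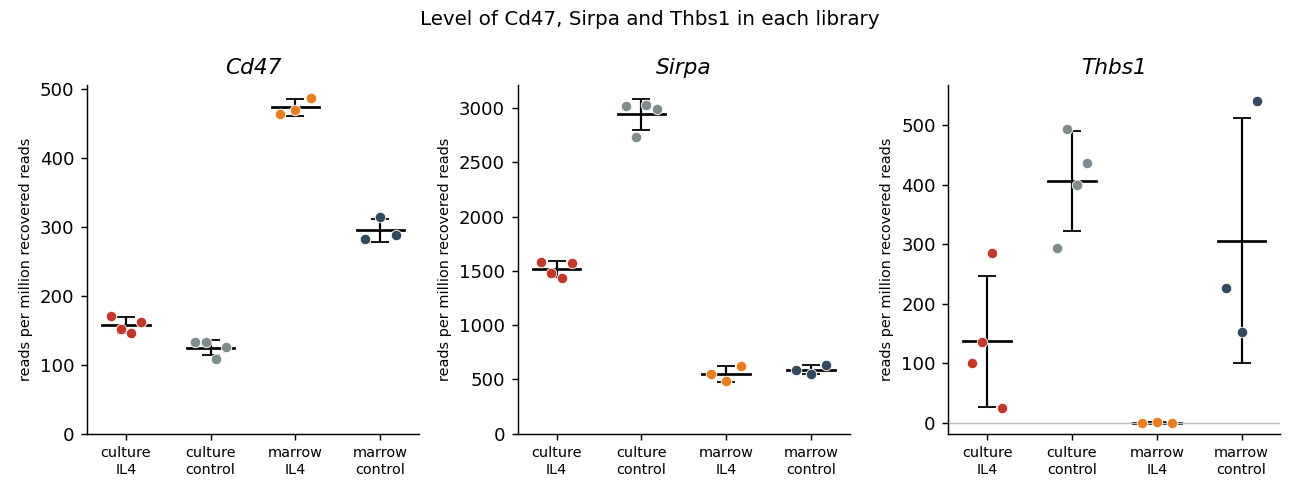
RPM of Cd47, Sirpa and Thbs1 in each of the 14 libraries (points), with the group mean and SD (bars). Cd47 is higher with IL4 in both experiments, Sirpa is lower with IL4 in culture and overlaps between the marrow groups, and Thbs1 is at 0 to 1.813 RPM in the 3 marrow IL4 libraries.

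Sirpa, the receptor, was lower with IL4 in culture, and its marrow groups overlapped. The culture IL4 libraries had 1583, 1478, 1433 and 1571 RPM, against 3017, 2732, 3026 and 2991 RPM in the culture controls. All 4 IL4 libraries lay far below all 4 controls. The marrow IL4 libraries had 549.6, 482.3 and 624 RPM, against 591.7, 546.9 and 633.5 RPM in the marrow controls, and the 2 ranges lay over each other.

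In culture, Sirpa fell by 0.94 ± 0.0982 on the log2 scale (SE, n = 4 per group, limma adjusted p = 8.62e-05), so that its level was 1.92-fold higher in control cultures. The fall was 0.58 after centring (limma adjusted p = 0.00248). In marrow, the log2 fold change was -0.10 ± 0.139 (SE, 95% interval -0.416 to 0.21, n = 3 per group) and did not pass, with a limma adjusted p of 0.659. The sign of the marrow value turned to 0.0022 after centring. The effect in marrow minus that in culture was 0.84 ± 0.153 (SE, limma adjusted p = 0.00145) and 0.58 after centring (limma adjusted p = 0.0229). Of all genes, 16.6% had a difference that passed on the higher side, 6.45% on the lower side and 23.1% in either direction (9.5% and 9.38% after centring). With the marrow groups overlapping, the order of Sirpa levels was marrow IL4 and marrow control, then culture IL4, then culture control.

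The macrophage markers moved with Sirpa in culture. Of 12 markers, 9 fell with IL4 and 2 rose, against 32.6% and 7.96% of all genes. After centring 9 fell and 3 rose, against 12.7% and 14.4% of all genes. The summed level of the 10 with recovered reads was 5340 to 6800 RPM with IL4 and 10300 to 11600 RPM without it. Csf1r, the CSF1 receptor, averaged 1570 RPM with IL4 and 3050 RPM without it (log2 fold change -0.96 ± 0.137, SE, limma adjusted p = 0.000544). In marrow 4 of the 12 markers rose with IL4 and 4 fell, against 6.7% and 11.5% of all genes. After centring these were 4 and 3, against 9.45% and 8.92%. There C1qb, a complement gene, averaged 88.4 RPM with IL4 and 6.98 RPM without it, and Csf1r 188 and 403 RPM. The part of these markers in the Sirpa result was not tested.

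Thbs1, the gene of thrombospondin-1, was lower with IL4 in both experiments and was nearly absent from the reads of the marrow IL4 libraries. In marrow it had 0, 1 and 0 reads in the IL4 libraries, against 147, 100 and 378 reads in the controls. As levels, these are 0, 1.813 and 0 RPM with IL4, against 225.9, 152.8 and 540.6 RPM without it. A count of 0 allows up to 3 reads, which is 5.22 and 3.59 RPM in the 2 marrow IL4 libraries at 0 (counting error only). The lowest control library was therefore well above what the IL4 libraries allow.

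In culture, Thbs1 had 100.4, 135.8, 286.3 and 25.34 RPM in the IL4 libraries, against 293.6, 493.4, 400.2 and 436.2 RPM in the controls. The highest IL4 library lay just under the lowest control, and the IL4 libraries spread widely, with an SD of 80.1% of their mean against 20.7% in controls. The IL4 library with the lowest value held 17 Thbs1 reads and the one with the highest held 202.

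The summed marrow reads were 1 with IL4 and 625 without it, a ratio per read total of 612 in favour of the controls (exact 95% interval 109 to 24200, counting error only). The marrow log2 fold change was -7.89 ± 0.628 (SE, n = 3 per group) with a limma adjusted p of 0.000111, and -7.78 after centring. The size of this fitted value depends on the offset of 0.5 reads in the deposited scale, and an offset of 2 reads gives -6.24. No gene had a lower fitted value in marrow, among 9474 as deposited or among the 9448 with recovered reads at an offset of 2. In culture, Thbs1 fell by 1.97 ± 0.576 on the log2 scale (SE, 95% interval -3.25 to -0.69, n = 4 per group, limma adjusted p = 0.0209), so that its level was 3.92-fold higher in controls. That call was lost after centring (log2 fold change -1.61, limma adjusted p = 0.0639), where the groups overlapped, and the estimate is -1.32 without IL4 library 4, the library with 17 reads.

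The marrow effect on Thbs1 minus the culture effect was -5.92 ± 0.96 (SE, limma adjusted p = 0.00064) and -6.175 after centring, but -4.285 with an offset of 2 reads. A lower difference was found for 12 genes as deposited and for 19 with that offset. Thbs1 was 1 of 555 genes that fell in both experiments, 18% of those that fell in culture and 51.1% of those that fell in marrow. In order of level, marrow IL4 stood lowest, apart from the other groups, and culture IL4, marrow control and culture control overlapped with their neighbours.

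Platelets and monocytes are known sources of thrombospondin-1, so their markers are given beside this result. Of 15 megakaryocyte and platelet markers 3 were measured. Pf4, the platelet chemokine, had 1 to 6 reads in the marrow IL4 libraries, against 1 in each marrow control, and Vwf, the von Willebrand factor gene, had 0 to 6 against 2 to 6. With Itgb3, described below, the 3 summed to 264 to 348 RPM in marrow IL4 libraries and 85.8 to 117 RPM in marrow controls. That sum was carried by Itgb3, which averaged 295 RPM with IL4 and 93.2 RPM without it. The monocyte genes Ccr2, Vcan, F13a1 and Fn1 summed to 224 to 486 RPM in marrow IL4 libraries, against 4060 to 5580 RPM in marrow controls. Fn1 alone averaged 196 RPM with IL4 and 3310 RPM without it in marrow. Ccr2, F13a1 and Fn1 fell there, as Thbs1 did, and Vcan did not pass (limma adjusted p = 0.221). In culture the same 4 genes summed to 3220 to 4290 RPM with IL4, against 486 to 1020 RPM without it, a sum carried by Fn1, the fibronectin gene, which rose by 3.09 (log2, limma adjusted p = 3.81e-05). The other 3 fell in culture, as Thbs1 did, Ccr2 by 3.63 (limma adjusted p = 0.00222), F13a1 by 2.39 (limma adjusted p = 0.0104) and Vcan by 2.04 (limma adjusted p = 0.00537). The remaining measured member of the monocyte list, Chil3, is itself induced by IL4, averaging 28400 RPM with IL4 and 3690 RPM without it in marrow. The part of monocyte and platelet cells in the Thbs1 result was not tested.

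**Figure D3:**
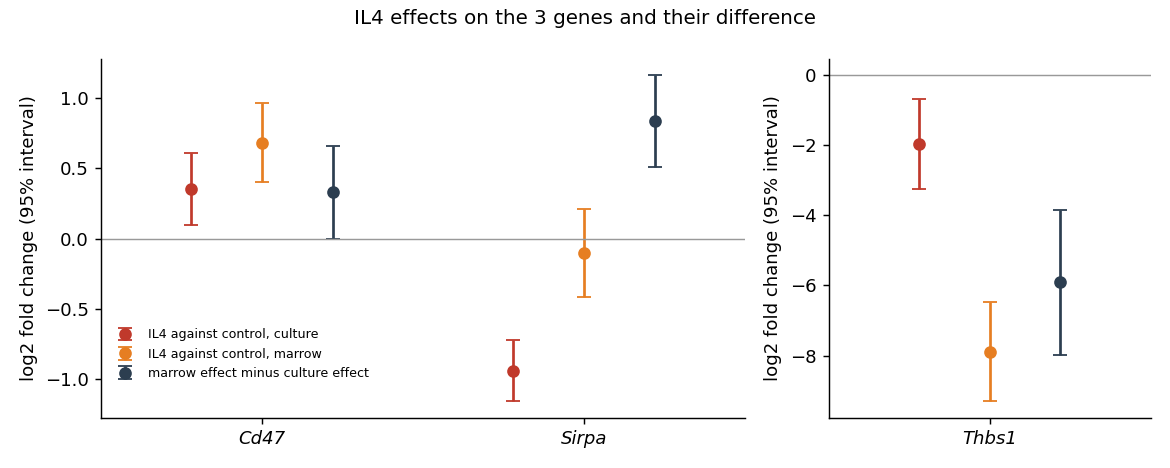
Log2 fold changes of IL4 against control in culture and in marrow, and the marrow effect minus the culture effect, with 95% intervals from limma. The interval of the difference lies above 0 for Sirpa and below 0 for Thbs1, and reaches just below 0 for Cd47.

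RPM was also divided by the length of the longest transcript, which assumes that reads were counted over that length. On this scale Sirpa averaged 381 RPM per kb with IL4 and 739 without it in culture, and 139 and 148 in marrow. Cd47 averaged 30.1 RPM per kb with IL4 and 23.8 without it in culture, and 90.3 and 56.3 in marrow. Thbs1 averaged 23.4 RPM per kb with IL4 and 69.4 without it in culture, and 0.103 and 52.4 in marrow. By these levels Sirpa stood above Cd47 in all 4 groups, by a wider margin in culture than in marrow. The deposited values, which carry a constant per gene, give the opposite order. On them, Sirpa minus Cd47 averaged -1.74 with IL4 and -0.45 without it in culture, and -4.79 and -4 in marrow (log2). The length over which Cd47 reads were counted is not given, so the order of Sirpa and Cd47 is not settled.

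Differences between the genes within a library do not depend on how libraries were scaled. The deposited values carry a constant per gene whose origin is not given. The size of such a difference is therefore not interpreted, and only its shift between groups is read. Sirpa minus Cd47 was -1.80, -1.73, -1.71 and -1.73 (log2) in the culture IL4 libraries, against -0.50, -0.64, -0.22 and -0.44 in the culture controls. The shift of -1.29 corresponds to a 2.45-fold lower ratio of receptor to ligand transcripts with IL4, without overlap (exact two-sided permutation test, p = 0.0286, the smallest that 4 against 4 libraries allow, adjusted p = 0.0857 over 6 comparisons). In marrow, Sirpa minus Cd47 was -4.76, -4.96 and -4.65 with IL4, against -3.94, -4.2 and -3.87 in controls. The marrow shift of -0.78, a 1.72-fold lower ratio, also came without overlap (exact permutation p = 0.1, the smallest that 3 against 3 allow, adjusted p = 0.12).

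Thbs1 minus Cd47 shifted by -2.32 in culture (exact permutation p = 0.0286, adjusted p = 0.0857) and by -8.57 in marrow (exact permutation p = 0.1, adjusted p = 0.12), with no overlap in either. The marrow shift rests on 0 to 1 Thbs1 reads with IL4 and is -6.914 with an offset of 2 reads. Thbs1 minus Sirpa averaged -4.16 with IL4 and -3.13 in controls of the culture experiment, and those groups overlapped (exact permutation p = 0.229, adjusted p = 0.229). In marrow it shifted by -7.79, or -6.134 with an offset of 2 reads, without overlap (exact permutation p = 0.1, adjusted p = 0.12). None of the 6 comparisons passed after adjustment. None could have passed at 0.05, since the smallest exact permutation p is 0.0286 in culture and 0.1 in marrow. The lack of a pass therefore decides nothing about these shifts. The separation in culture was at the limit of the test for both pairs with Cd47, and in marrow for all pairs.

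**Figure D4:**
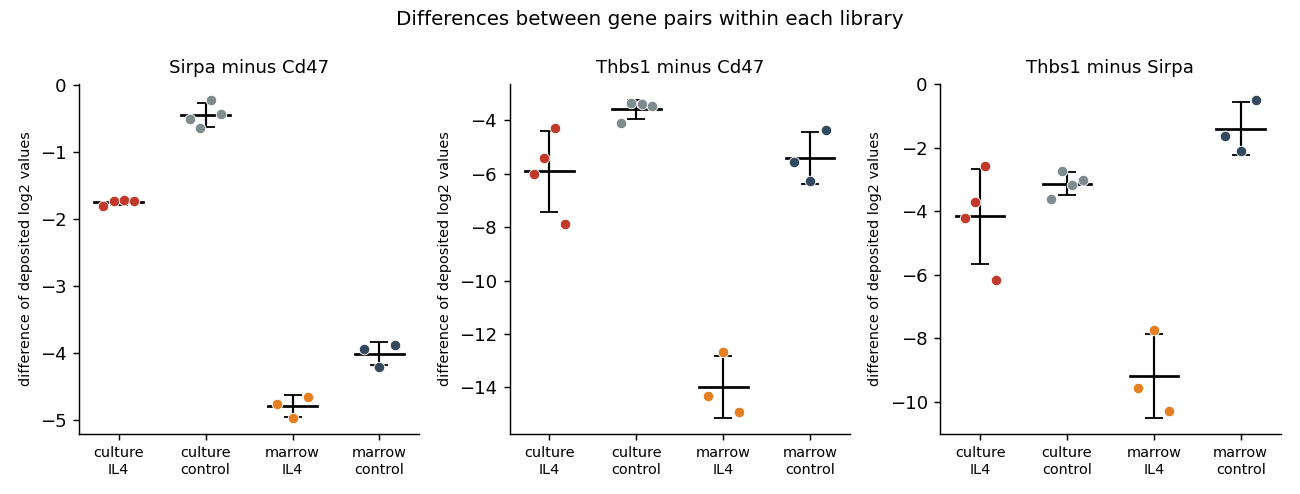
Differences of the deposited log2 values between gene pairs within each library (points), with group mean and SD. The groups of Sirpa minus Cd47 and Thbs1 minus Cd47 are apart in both experiments, with lower values under IL4, and those of Thbs1 minus Sirpa overlap in culture.

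The genes around this axis were then read from 6 lists, 71 genes in all, beside the median of all genes. Among the partners of CD47 and the enzymes of its maturation, 16 of 17 were measured. In culture 5 rose and 4 fell, against 7.96% and 32.6% of all genes. After centring these were 6 and 3, against 14.4% and 12.7%. The median log2 fold change was -0.02 against -0.36 over all genes. Itgb3, the integrin beta 3 chain that pairs with alpha V and associates with CD47, had 251 ± 41.4 RPM with IL4 and 11.8 ± 1.08 RPM without it in culture (SD, n = 4 each). Its log2 fold change was 4.34 ± 0.146 (SE, limma adjusted p = 3.09e-08). Its partner Itgav fell by 1.17 ± 0.124 (SE, limma adjusted p = 9.48e-05), and Itga4, the alpha 4 chain of VLA-4, fell by 2.01 ± 0.17 (SE, limma adjusted p = 2.36e-05).

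In marrow, 1 CD47 partner rose and 1 fell, against 6.7% and 11.5% of all genes. After centring the counts were the same, against 9.45% and 8.92%. The median was 0.07 against -0.06 over all genes, or 0.09 without Cav1, which was at 0 reads in all marrow libraries. The partners that passed were again Itgb3, with 295 ± 47.1 RPM with IL4 and 93.2 ± 18.2 RPM without it (log2 fold change 1.66 ± 0.179, SE, limma adjusted p = 0.000455), and Itga4, at -1.56 ± 0.124 (SE, limma adjusted p = 0.000111). The marrow effect on Itgb3 minus the culture effect was -2.68 (limma adjusted p = 5.41e-06). Qpctl, whose enzyme forms the modified end of CD47 that SIRPA recognises, had 14.4 ± 5.66 RPM with IL4 and 20.7 ± 7.79 RPM without it in culture, and 16.9 ± 7.98 and 21.5 ± 2.93 RPM in marrow, and did not pass in either (limma adjusted p = 0.363 and 0.524). Of its relative Qpct, the culture level was 56.2 ± 11.9 RPM with IL4 and 30.3 ± 5.85 RPM without it, a rise of 0.88 ± 0.234 (SE, limma adjusted p = 0.0135).

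Of the signalling genes linked to SIRPA, 12 of 13 were measured. In culture 9 fell and 0 rose by limma, with a median log2 fold change of -0.99 against -0.36 over all genes, of which 32.6% fell and 7.96% rose. The counts were also 9 and 0 at an unadjusted p under 0.05 and by limma-voom on the recovered reads, and 7 and 0 after centring, where 12.7% of all genes fell and 14.4% rose. Ptpn6, which encodes SHP-1, had 165 ± 13.2 RPM with IL4 and 495 ± 34.5 RPM without it in culture (SD, n = 4 each), and fell by 1.56 ± 0.124 (SE, limma adjusted p = 1.77e-05). Fyb, an adaptor that binds SKAP2, fell by 2.14 ± 0.12 (SE, limma adjusted p = 1.73e-06). Ptpn11, which encodes SHP-2, had 136 ± 12.3 RPM with IL4 and 161 ± 12.9 RPM without it and did not pass (limma adjusted p = 0.158).

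In marrow, 1 of these 12 signalling genes passed, the nonmuscle myosin heavy chain gene Myh9, with a rise of 0.39 ± 0.114 (SE, limma adjusted p = 0.0431), a call that was lost in 8 of its 14 alternatives. Of all genes in marrow, 6.7% rose, 11.5% fell and 18.2% passed in either direction. Ptpn6 had 698 ± 24.1 RPM with IL4 and 652 ± 22.3 RPM without it in marrow (SD, n = 3 each, limma adjusted p = 0.631). The marrow effect was above the culture effect for 9 of the 12 genes and below it for 0 (7 and 0 after centring, 10 and 0 at an unadjusted p under 0.05 and by limma-voom), with a median difference of 1.02 against 0.30 over all genes. Fyb differed by 1.96 (limma adjusted p = 1.22e-05), Ptpn6 by 1.66 (limma adjusted p = 1.02e-05) and Vav1, a guanine nucleotide exchange factor, by 1.25 (limma adjusted p = 0.000206). Over all genes, 16.6% passed on the higher side (9.5% after centring), and 67.6% had a difference above 0.

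The list of other SIRP family genes, the adaptor gene Tyrobp and the kinase gene Syk was thinly covered, with 3 of 6 measured. Sirpb1b was the only SIRP gene among them. Sirpb1b, a family member that signals through an adaptor, had 5.5 ± 1.41 RPM with IL4 and 16.1 ± 4.25 RPM without it in culture (SD, n = 4 each) and fell by 1.42 ± 0.254 (SE, limma adjusted p = 0.00194). Tyrobp, which encodes the adaptor DAP12, fell by 0.40 ± 0.123 (SE, limma adjusted p = 0.0255), and by 0.04 after centring, where it no longer passed (limma adjusted p = 0.87). Syk rose by 0.15 in culture and did not pass (limma adjusted p = 0.322), but passed after centring at 0.51 (limma adjusted p = 0.0159). In culture 2 of the 3 thus fell and 0 rose, against 32.6% and 7.96% of all genes. After centring 1 fell and 1 rose, against 12.7% and 14.4%. The list's median in culture was -0.40, the value of Tyrobp, against -0.36 over all genes. In marrow 0 of 3 passed by limma, against 18.2% of all genes in either direction. There were also 0 at an unadjusted p under 0.05 and 0 by limma-voom. The list's median in marrow was -0.06, as over all genes.

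Of the thrombospondin family and its receptors, 8 of 15 genes were measured. In culture 3 rose and 3 fell, against 7.96% and 32.6% of all genes. After centring these were 3 and 1, against 14.4% and 12.7%. The median log2 fold change was -0.19. Cd36, the scavenger receptor that binds thrombospondin-1, had 7090 ± 694 RPM with IL4 and 2440 ± 1370 RPM without it in culture (SD, n = 4 each), a rise of 1.70 ± 0.298 (SE, limma adjusted p = 0.00176). The syndecan gene Sdc1 rose by 3.08 ± 0.376 (SE, limma adjusted p = 0.000206), and Itga6, an integrin alpha chain, fell by 2.71 ± 0.204 (SE, limma adjusted p = 1.28e-05).

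In marrow 1 gene of this list rose and 2 fell, against 6.7% and 11.5% of all genes. After centring these were 2 and 2, against 9.45% and 8.92%. The list's median was -0.21. Lrp1, the endocytic receptor that clears thrombospondin-1, had 69.3 ± 20.9 RPM with IL4 and 490 ± 121 RPM without it (SD, n = 3 each), and fell by 2.83 ± 0.267 (SE, limma adjusted p = 0.000255). Calr, which encodes calreticulin, an LRP1 partner and a signal for phagocytosis, rose by 0.62 ± 0.144 (SE, limma adjusted p = 0.0176), a call lost without marrow control 1 or 3 and without the variance trend. Sdc1 had 1.4 ± 1.25 RPM with IL4 and 13.2 ± 8.01 RPM without it and fell (limma adjusted p = 0.0246), a call that was lost without IL4 library 1 or control 1 or 2. Cd36 was low in marrow, at 22.1 ± 17.1 RPM with IL4 and 34.4 ± 12.2 RPM without it, and did not pass (limma adjusted p = 0.345). The effects differed between the experiments for Itga6 by 2.90 (limma adjusted p = 1.02e-05), for Lrp1 by -2.20 (limma adjusted p = 8.92e-05) and for Sdc1 (limma adjusted p = 0.000161).

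All 7 transcription factor genes listed as acting on Cd47 in other cells were measured. Myc, reported to act on CD47 in tumour cells, rose in both experiments. It had 45.6 ± 7.08 RPM with IL4 and 22.8 ± 8.69 RPM without it in culture (log2 fold change 1.05 ± 0.237, SE, limma adjusted p = 0.00641). In marrow it had 111 ± 7.88 RPM with IL4 and 50.7 ± 16.2 RPM without it (log2 fold change 1.17 ± 0.239, SE, limma adjusted p = 0.0093). In culture 4 of the others fell as deposited, as did 32.6% of all genes, among them Nfkb1, by 0.61 (limma adjusted p = 0.00597), and Stat3, by 0.61 (limma adjusted p = 0.0179), but 0 fell after centring (0 also at an unadjusted p under 0.05, and 5 by limma-voom without centring). The list's median was -0.42 in culture against -0.36 over all genes, and 0.26 in marrow against -0.06, where Myc was the 1 member that passed. Of all genes in marrow, 6.7% rose and 11.5% fell. The difference passed on the higher side for 4 of the 7 as deposited, among them Nfkb1, Stat3 and Hif1a, and for 0 after centring (3 at an unadjusted p under 0.05, and 4 by limma-voom without centring). The shares over all genes were 16.6% as deposited and 9.5% after centring.

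Of 13 genes of other phagocytosis checkpoints and signals, 10 were measured. In culture 4 rose and 3 fell, against 7.96% and 32.6% of all genes. After centring these were 4 and 2, against 14.4% and 12.7%. The list's median was -0.03. Cd274, which encodes PD-L1, had 335 ± 73.2 RPM with IL4 and 51.4 ± 25.1 RPM without it in culture (log2 fold change 2.78 ± 0.296, SE, limma adjusted p = 9.48e-05). Pecam1, an inhibitory adhesion receptor, had 24.7 ± 10.5 RPM with IL4 and 0.633 ± 0.741 RPM without it, and rose (limma adjusted p = 0.000122). Clec12a, an inhibitory lectin receptor, fell by 1.63 ± 0.13 (SE, limma adjusted p = 1.82e-05). Siglece, an inhibitory sialic acid receptor, had 0 reads in all 4 culture IL4 libraries, against 9.25 ± 6.81 RPM in controls, and fell (limma adjusted p = 0.000842).

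In marrow 3 checkpoint genes rose and 3 fell, against 6.7% and 11.5% of all genes. After centring these were 4 and 3, against 9.45% and 8.92%. The list's median was 0.20. Cd200r1, the inhibitory receptor for CD200, had 81.4 ± 4.44 RPM with IL4 and 26.6 ± 4.42 RPM without it (SD, n = 3 each, log2 fold change 1.60 ± 0.146, SE, limma adjusted p = 0.000217). Pecam1 rose by 2.05 ± 0.251 (SE, limma adjusted p = 0.000819). Cd24a, whose product CD24 is a further antiphagocytic ligand, fell by 0.94 ± 0.136 (SE, limma adjusted p = 0.00178), with 670 ± 54.3 RPM with IL4 and 1290 ± 141 RPM without it. Cd24a is also a neutrophil and precursor gene. The neutrophil genes S100a8, S100a9, Ngp and Mmp8 summed to a lower level with IL4 in these libraries as well. Their sum was 42100 to 52000 RPM with IL4, against 57300 to 65800 RPM without it. Among them Ngp alone passed (log2 fold change -0.893, limma adjusted p = 0.0139). S100a8, S100a9 and Mmp8 did not pass, and the log2 fold change of Mmp8 was 0.128. The part of the neutrophils in the Cd24a result was not tested. The effects of the experiments differed for Siglece (limma adjusted p = 0.000121), for Clec12a by 0.99 (limma adjusted p = 0.00134) and for Slamf7, a prophagocytic receptor, by -3.14 (limma adjusted p = 0.00186).

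**Figure D5:**
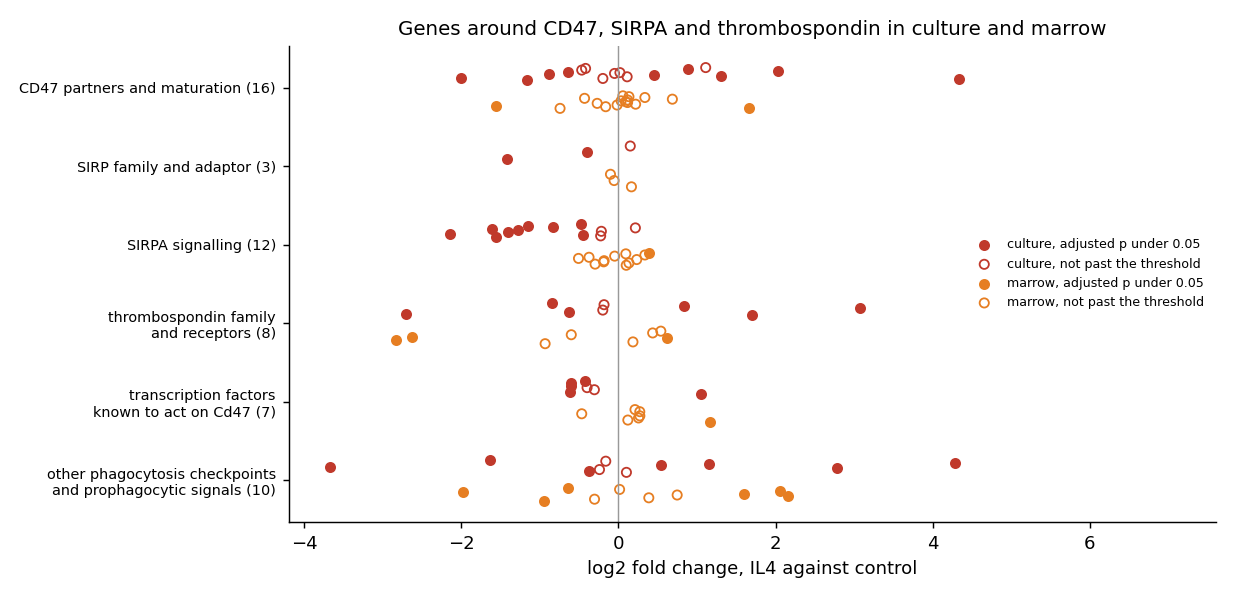
Log2 fold changes of IL4 against control for the measured genes of 6 lists in culture and in marrow; filled points have a limma adjusted p under 0.05. Of the 12 SIRPA signalling genes, 9 filled points lie below 0 in culture, and 1 filled point, above 0, is in marrow, and the lowest culture value in the plot, of Siglece, is of a gene at 0 reads in all IL4 libraries and depends on the offset.

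The genes whose pattern was most like each of the 3 were ranked by Pearson's r over the 14 libraries, after each gene was set to its mean within each experiment and each library was centred, among 6962 genes. These are descriptions, since the points share libraries. Genes were not set to their mean within each group, so these r include the difference between IL4 and control libraries. For Cd47 they were Fcgr2b, the inhibitory Fc receptor (r = 0.969), Oit3 (r = 0.967) and Vat1, a vesicle protein gene (r = 0.963). Fcgr2b rose by 2.11 in culture and by 2.46 in marrow (limma adjusted p = 1.94e-05 and 0.000111). The most opposite were Cx3cr1, the fractalkine receptor gene (r = -0.97), and Dck, a nucleoside kinase gene (r = -0.958). Cx3cr1 fell in both experiments (limma adjusted p = 1.11e-08 and 4.83e-06).

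For Sirpa, the most alike were the kinase gene Snrk (r = 0.948) and Tgfbr2, a TGF-beta receptor chain (r = 0.94), and the most opposite were the septin gene Sept11 (r = -0.939) and the guanylate-binding protein gene Gbp2 (r = -0.936). Tgfbr2 fell by 1.87 in culture (limma adjusted p = 1.44e-05) and did not pass in marrow (0.05, limma adjusted p = 0.878). For Thbs1, the most alike were Bmpr2, a BMP receptor gene (r = 0.948), Parvb, which encodes the adhesion protein beta-parvin (r = 0.944), and the DNA polymerase gene Polm (r = 0.938), and the most opposite were the caspase gene Casp6 (r = -0.934) and the ribosomal protein gene Rps14 (r = -0.933). Parvb and Thbs1 had r = 0.993 over the 6 marrow libraries and r = 0.433 over the 8 of culture. With 0 to 1 Thbs1 reads in marrow IL4 libraries and 100 to 378 in controls, the marrow r mostly follows the split between these groups. On the deposited scale without centring, Pparg, the nuclear receptor gene (r = 0.945), led for Cd47, Tgfbr2 (r = 0.977) for Sirpa and Parvb (r = 0.947) for Thbs1.

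The authors' deposited table gives Cd47 a fold change of 1.03 (q = 0.028), Sirpa 0.903 (q = 0.000189) and Thbs1 0.668 (q = 0.143) in culture. These ratios are met only if the log2 values are logged once more, and the log2 values themselves give 1.28, 0.521 and 0.255. The culture p-values behind these q values are on that scale too, since an equal-variance test after a second log matched the p-values of the deposited table within 1% for 8683 of 8685 genes, and a test on the log2 values for 1178 of 9474. The culture q values, that of Thbs1 included, therefore do not test the log2 values. In marrow, the authors' deposited table gives 1.6 for Cd47 (q = 0.0219), 0.931 for Sirpa (q = 0.642) and 0.00422 for Thbs1 (q = 0.0307), and the plain differences of the log2 values give the same ratios. The culture fold changes and q values of the authors' deposited table are therefore on another scale than those of marrow.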

How the data were processed

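Each experiment has a table of the same 9474 genes. The authors' deposited library values are on a log2 scale, and beside them stand, per gene, a fold change as a plain ratio, a p-value and a q-value, all deposited by the authors. Reads went through bcl2fastq and TopHat2 2.0.13 to mm10, per the submitters' processing notes, after RNeasy Micro extraction and TruSeq RNA v2 library construction, per the labels' protocols. The sources used here do not name the counter, normalization, gene filter or strand setting. The values follow log2(reads + 0.5) plus 1 constant for the gene and 1 for the library. With these solved, whole reads came out for 9448 genes (99.7%), with a residual of at most 0.000638 on the log2 scale (0.000435 for Cd47, Sirpa and Thbs1). For the other 26 genes, log2 values alone were used. Because of the constant per gene, whose origin is not given, deposited values do not settle the order of genes. RPM divides recovered reads by their total over the table's genes, so it is relative to these genes and not to the whole library.

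The tests used limma 3.58.1 in R 4.3.3 with a variance trend on the deposited log2 values, without covariates, within each table (6 and 4 residual degrees of freedom), two-sided, with Benjamini-Hochberg adjustment over 9474 genes and a threshold of 0.05. The difference of effects used all 14 libraries (10 residual degrees of freedom). Differences between genes within libraries used exact permutation tests. Intervals are 95% intervals. The code was tested on simulated data. Alternatives were centring on library medians, quantile normalization, no variance trend, a filter on the lowest 25% of levels, an offset of 2 reads, limma-voom on recovered reads, a replicate block and leaving out each library. A trend over RPM was added after seeing the data. Named genes are the 3 genes, the 3 most and 2 least alike of each, and up to 3 genes of each list with the smallest p among those that passed in a comparison. Ptpn11, Qpctl, Qpct, Hif1a, Syk, Cav1, and Cd36 in marrow are named beyond that rule, after their values were seen. Marker genes named beside a result come from the marker lists. Some genes that the rule names are not reported here. The 3 genes and the lists were chosen with earlier results of these data known. Separate cultures or animals are not stated for the libraries, so the p-values cover the spread among samples that may be technical repeats. No per-sample column was left unused (0).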

Additional observations from a re-analysis of the deposited data

Results flagged for a closer look

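The effect of IL4 on Sirpa and on Thbs1 differed between marrow and culture by the test of the difference itself. For Sirpa the marrow effect minus the culture effect was 0.84 (log2, limma adjusted p = 0.00145), and for Thbs1 it was -5.92 (limma adjusted p = 0.00064), or -4.285 with an offset of 2 reads. The remaining flags are single libraries far from the others of their group. Sirpa in culture control library 2 was 9.57 on the deposited log2 scale, below the other 3 controls, with a gap to the nearest that is 0.886 of the group's range. Thbs1 minus Cd47 in culture control library 1 was -4.11, below the other 3 controls. Chance flags about 1 in 20 groups, and 6 groups were looked at for single genes and 6 for gene pairs.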

How the results depend on the processing

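In culture, Cd47 (0.35 as deposited) lost its call without the variance trend (0.3532, limma adjusted p = 0.0622) and without IL4 library 1, 2 or 4 or control library 1 or 3, with values of 0.289 to 0.390 when a library was left out (adjusted p = 0.0362 to 0.0988). Thbs1 lost its culture call after centring (-1.61, adjusted p = 0.0639), after quantile normalization (-1.67, adjusted p = 0.0516) and without control library 2 (adjusted p = 0.0538), with leave-one-out values of -2.48 without IL4 library 3 to -1.32 without IL4 library 4. Marrow Sirpa turned to 0.0022 after centring. In marrow, the exact permutation test of Cd47 (0.68) and of Thbs1 (-7.89) gave p = 0.1, the smallest 3 against 3 allow. Culture Sirpa and both differences that passed kept direction and call in every alternative run. Genes past the threshold in marrow were 1721, and 1104 to 1460 when a library was left out, with 1147 without control 2 and 1104 without control 3. In culture 754 rose and 3084 fell, but 1365 and 1205 after centring and 1271 and 1324 after quantile normalization. In marrow these were 635 and 1086, 895 and 845, and 806 and 887. The difference passed for 1575 genes on the higher side and 611 on the lower, but for 900 and 889 after centring and 921 and 859 after quantile normalization. The causes were not tested. With limma-voom on the recovered reads, 4053 genes passed in culture and 2315 in marrow. Deviations of same-numbered libraries had r = -0.045 to 0.022 in culture, against -0.0339 to 0.0331 for differently numbered ones. In marrow same-numbered libraries had r = 0.0264 to 0.059, against -0.0444 to 0.0116 for differently numbered ones. All these r are small, and so few libraries cannot decide whether the numbers pair them. With a replicate block, adjusted p was 0.0494 for Cd47, 0.00123 for Sirpa and 0.022 for Thbs1 in culture, and 0.00787, 0.618 and 0.000426 in marrow, with 3447 and 1764 genes past the threshold. Of 1061 alternatives in all, 753 of single genes beyond the 3 kept direction and call and 50 lost the call. At 69 to 142 Cd47 reads per culture library, a change of the size of the culture effect is near the limit of these libraries, and at 0 to 1 Thbs1 reads in marrow IL4 libraries counting error places the ratio of controls over IL4 anywhere between 109 and 24200.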
